A study of Mus musculus with 36 samples.

Results

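The genes described here are the translation initiation factors of the mouse and the kinases that phosphorylate eIF2, measured in the blood of sickle cell mice. They were chosen by name: every gene whose symbol starts with Eif and a digit from 1 to 6, the Eif2ak kinases and Eif4ebp binding proteins included, without pseudogenes and without Eif2s3x and Eif2s3y. This gave 52 genes of 16812 in the table, each taken from whichever of its transcripts collected most reads. All 52 passed the filter on low counts and were tested among 11953 genes.

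RNA was sequenced from peripheral blood, labelled erythrocytes, of Townes sickle cell mice, a transgenic line humanised for globin, in 36 libraries that form 12 groups of 3. Mini-osmotic pumps delivered cholesterol-modified MIR29B or a scrambled control, at doses of 2 or 3 mg/kg, and each group's blood is labelled week 0, week 2 or week 4. All groups share the sickle genotype and the pump, and globin mRNA had been depleted from every sample. Neither the ages of the animals nor whether the week 0 blood preceded dosing is given in the sources used here, so whether the week 0 libraries of an arm had been exposed to its agent is not known. The labels do not say that replicates are separate animals, and p-values measure the spread between these samples only.

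Totals ran from 10.7 to 45.65 M counts a library, with a median of 29.1 M. The labelled cell type was matched by its markers: 11 of 12 erythroid markers were in the table, and their summed level was 64700 to 157000 TMM-scaled CPM (library-scaled counts, CPM below). Most of that sum was Alas2, at 58900 to 149000 CPM, and the other erythroid markers ranged down to Klf1 at a median of 6.04 CPM. Markers of leukocytes and platelets were present as well, and no marker in any of the 7 lists was at 0 in all libraries. From week 0 to week 2 the 10 neutrophil markers summed to 168 to 1110 CPM and then 748 to 2790 CPM, and 9 of the 10 were called higher. At week 2, 4 of 8 NK cell, 2 of 8 B cell and 1 of 8 T cell markers were called lower, 1 of 8 monocyte markers was called higher, and none of 8 platelet markers was called. Of the 11 erythroid markers 2 were called higher and 3 lower. The shares of all genes tested were 8.72% higher and 7.24% lower. The part of these cells in the results on initiation factors was not tested. In whole blood, fewer cells of a type and less RNA per cell cannot be told apart. Rows without a gene symbol held over 5% of counts in 2 libraries, replicates 2 and 3 of the week 2 group on 2 mg/kg MIR29B. The numbers of members called at week 2 against week 0 are given with and without them. Marker and pathway genes are given from the fit with all libraries only.

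Initiation joins the small ribosomal subunit, the initiator tRNA and an mRNA. eIF2 carries the initiator tRNA, eIF3 holds the complex together, eIF4F binds the cap and unwinds the leader, and eIF1, eIF1A, eIF5 and eIF5B govern scanning, start codon choice and subunit joining. Phosphorylation of eIF2 by one of its kinases blocks the exchange factor eIF2B and slows initiation. In red cell precursors the kinase HRI, encoded by Eif2ak1, is held inactive by heme and acts when heme is short, which matches globin synthesis to the heme supply.

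Levels were compared between genes per transcript length, as CPM per kb, the median of 36 libraries. Eif1, which guards start codon fidelity, had the highest level, at 778 CPM per kb, with a range of 347 to 2720. Eif5, the GTPase activator of eIF2, followed at 771, from 194 to 1180, and the ranges of both genes overlapped in part, with the highest Eif1 library above every Eif5 library. Next was Eif3k, an eIF3 subunit, at 555 CPM per kb, from 253 to 1210. A wide step separated these from Eif3h at 57.7 and Eif5a at 55.5 CPM per kb, whose ranges reached 123 and 247. Of the CPM summed over all members, Eif5 and Eif1 together made up a median of 72.2% (57.8 to 80.6%). At the low end stood the kinase gene Eif2ak4 at 0.272 CPM per kb, the eIF2B subunits Eif2b3 at 0.354 and Eif2b1 at 0.584, the kinase gene Eif2ak2 at 0.59 and Eif5a2 at 0.607. Their ranges overlapped, so this lower order is not separated by the spread between libraries. In 1 library Eif2ak4 and Eif2b1 had no counts, which allows up to 0.245 CPM each, and Eif2b3 had none in 4 libraries, where the limit was 0.213 to 0.392 CPM. These limits cover counting error only and take 0 as up to 3 counts. Every count was even, and the limits would be higher if counts were entered in pairs.

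**Figure D1:**
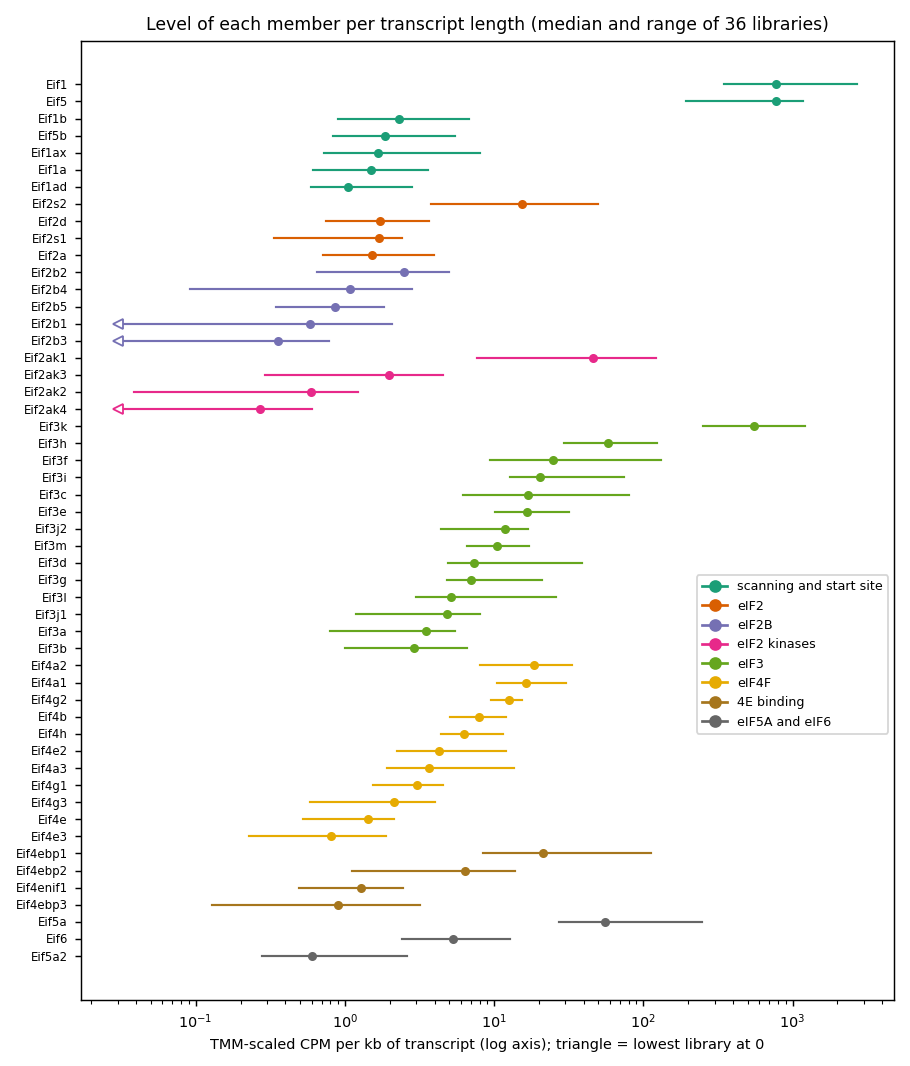
Level of each of the 52 members in CPM per kb of transcript on a log axis, ordered by role; the point is the median of 36 libraries and the line runs from the lowest to the highest library. Eif1, Eif5 and Eif3k stand at 555 CPM per kb or more, and Eif2ak1 leads the kinases at 46.2.

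The 4 kinases differed widely in level. Eif2ak1 (HRI) had 46.2 CPM per kb, from 7.69 to 121, and ranked 548 of 16626 genes with a length. Eif2ak3, which encodes PERK, the kinase of endoplasmic reticulum stress, had 1.99 CPM per kb, from 0.29 to 4.52, and no library of it reached the lowest library of Eif2ak1. Eif2ak2, which encodes PKR, the kinase of double-stranded RNA, and Eif2ak4, which encodes GCN2, the kinase of uncharged tRNA, had 0.59 and 0.272 CPM per kb and overlapped each other.

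Across all 52 members, 14 were called between week 2 and week 0 with both arms together, 9 higher and 5 lower, at a Benjamini-Hochberg adjusted p under 0.05 in edgeR's quasi-likelihood test over all genes. Of all genes tested, 16.0% were called, 8.72% higher and 7.24% lower. Log2 fold changes of the members had a median of 0.13, against -0.03 for all genes, and 32 of 52 lay above 0 (61.5%, against 48.3% of all genes). When the 2 libraries with many unmatched rows were left out, a setting added after the data were seen, 6 of 52 members were called. They were Eif3f, Eif5a, Eif2b2, Eif5b, Eif4a2 and Eif5a2, all among the 14. In that fit 1140 genes were called in all, where the fit with all libraries called 1907 of 11953. The number of genes tested in the fit without the 2 libraries is not given here. Eif3f, Eif5a, Eif2b2, Eif5b and Eif4a2 were called in each of the 24 fits that left out 1 library and in each of 10 other settings. A per-library index of how counts lean to long transcripts moved with week, with medians of 0.12, -0.1 and 0.1 at weeks 0, 2 and 4. With that index as a covariate the week 2 values were 0.36 for Eif1, 0.49 for Eif4a3, 0.41 for Eif6, 0.66 for Eif3c and 0.40 for Eif3d, none of them called. The same covariate added calls, among them Eif2ak3 and Eif4ebp2 at week 2 and Eif3f and Eif5a at week 4.

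**Figure D2:**
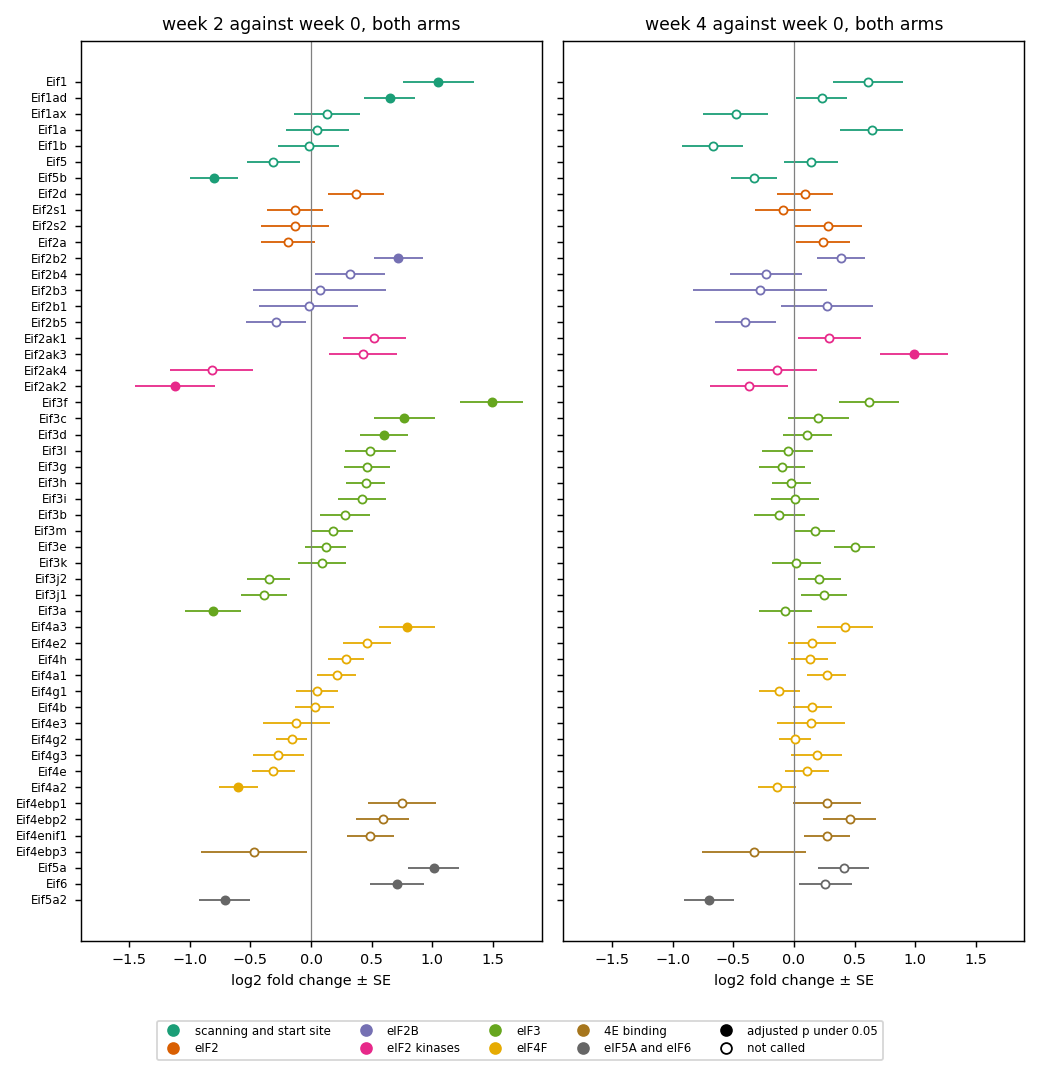
Log2 fold change with its standard error of each member at week 2 and at week 4 against week 0, both arms together, by role; filled points have an adjusted p under 0.05. At week 2, 14 points are filled, led by Eif3f at 1.49, and at week 4 only Eif2ak3 and Eif5a2 are.

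The 14 eIF3 genes moved apart. In 11 of 14 the log2 fold change at week 2 was above 0, with a median of 0.35, while 3 were called higher and 1 lower. Eif3f, a subunit of the MPN domain pair, had 23.7 to 78.6 CPM at week 0, with a median of 35.2, and 31.2 to 329 CPM at week 2, with a median of 88.0. In 10 of 12 week 2 libraries its level lay above every week 0 library, though the groups overlapped. The log2 fold change was 1.49 ± 0.26 (SE), with an adjusted p of 0.000202 by edgeR, and it stayed between 1.22 and 1.64 when each library was left out. At week 4 it had 41.9 to 97.1 CPM and a log2 fold change of 0.62 ± 0.25 (edgeR adjusted p = 0.154), which was 0.72 and called with the length index as a covariate (edgeR adjusted p = 0.00184).

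Eif3c, a core subunit, went from a median of 41.4 CPM (29.9 to 79.7) to 68.3 CPM (21.1 to 273) at week 2, a log2 fold change of 0.77 ± 0.25 with an adjusted p of 0.0324 by edgeR. The cap-binding subunit gene Eif3d went from 13.4 CPM (9.41 to 17.6) to 17.5 CPM (9.28 to 74.1), a log2 fold change of 0.60 ± 0.20 with an adjusted p of 0.0391 by edgeR. Both calls are weak: Eif3c lost its call in 9 and Eif3d in 14 of the 24 fits with 1 library left out. Without replicate 1 of the week 2 group on 3 mg/kg scrambled control they were 0.48 and 0.27. In the opposite direction, Eif3a, the largest subunit, fell from 20 CPM (12 to 28.2) to 12.2 CPM (4.09 to 24.9), a log2 fold change of -0.81 ± 0.23 with an adjusted p of 0.0131 by edgeR. It kept that call with any 1 library left out, and lost it without the 2 libraries with many unmatched rows. Eif3h missed the threshold, at 0.45 ± 0.16 with an edgeR adjusted p of 0.0511. Eif3j2 shared 91.8% of its stretches of 50 bases with other genes, mostly with Eif3j1, so counts of the pair are uncertain. Neither was called, at -0.35 and -0.39.

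Among the scanning and start site factors, 2 of 7 were called higher and 1 lower. Eif1 went from 729 CPM (459 to 2180) to 1430 CPM (498 to 3590). Its week 2 libraries spread from below the week 0 median to above every week 0 library, with 4 of 12 in the latter range. Its change was 1.05 ± 0.29 on the log2 scale, with an adjusted p of 0.0133 by edgeR. Without replicate 1 of the week 2 group on 3 mg/kg scrambled control, the highest library, it was 0.73 with an adjusted p of 0.0592. That library was also the highest at week 2 for Eif3f (329 CPM) and Eif5a (332 CPM). Sequence shared with other genes made up 31.6% of the Eif1 transcript. Eif1ad, a protein with an eIF1A domain, went from 2.31 CPM (1.52 to 3.77) to 3.51 CPM (2.52 to 7.21), a log2 fold change of 0.65 ± 0.21 (edgeR adjusted p = 0.0328), and lost its call in 9 of 24 fits with 1 library left out. Eif5b, the GTPase of subunit joining, fell. It had 12.5 to 42.4 CPM at week 0, with a median of 17.6, and 6.51 to 26.5 CPM at week 2, with a median of 9.74, and 9 of 12 week 2 libraries lay below every week 0 library. This gave a log2 fold change of -0.80 ± 0.20 with an adjusted p of 0.00538 by edgeR. Eif5, the abundant member, had 1890 to 4710 CPM at week 0 and 785 to 4790 CPM at week 2, and was not called (-0.31 ± 0.22).

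**Figure D3:**
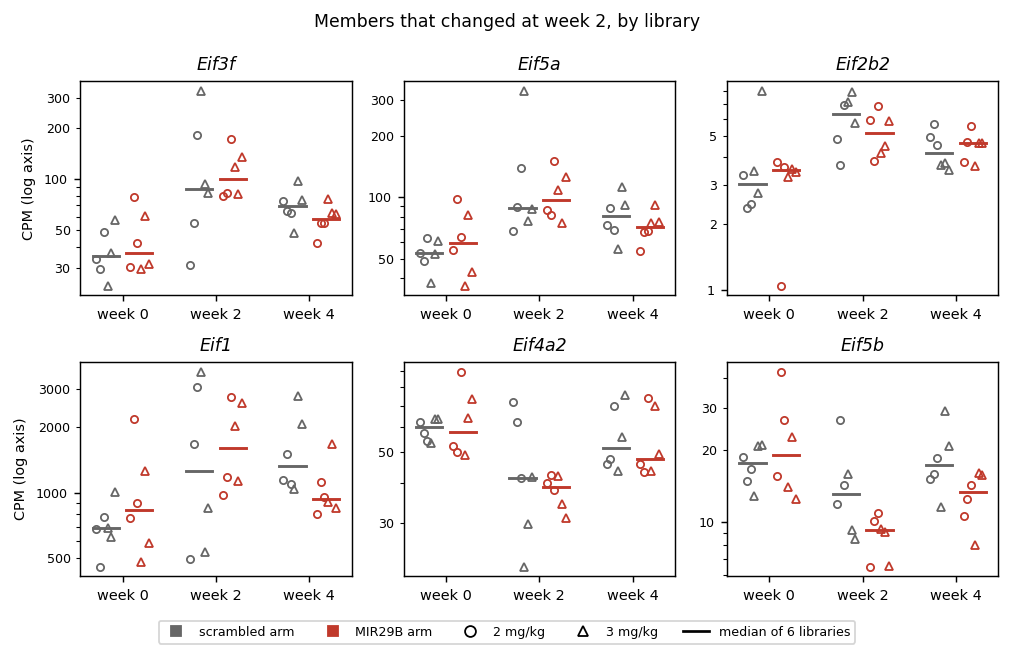
CPM in each of the 36 libraries for 6 members called at week 2, on log axes, by week and arm; circles are 2 mg/kg, triangles 3 mg/kg and bars the median of 6 libraries. Eif3f and Eif5a reach 329 and 332 CPM in 1 scrambled library at week 2, and the 6 MIR29B libraries of Eif5b at week 2 lie between 6.51 and 10.9 CPM.

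Neither Eif2s1 nor Eif2s2, the eIF2 subunit genes among the members, was called at either week. Eif2s3x and Eif2s3y were not examined. Eif2s1, the alpha subunit that the kinases phosphorylate, had medians of 5.69, 5.99 and 5.57 CPM at weeks 0, 2 and 4, and log2 fold changes of -0.13 ± 0.23 and -0.09 ± 0.23 against week 0. Eif2s2, the beta subunit, had medians of 37.2, 32.2 and 45.6 CPM, with -0.13 ± 0.28 and 0.28 ± 0.28. Of the 5 eIF2B genes, Eif2b2, the beta subunit, was called higher at week 2. It had 1.05 to 8.02 CPM at week 0, with a median of 3.38, and 3.69 to 7.96 CPM at week 2, with a median of 5.79. No week 2 library exceeded the highest week 0 library, but 12 of 12 lay above the week 0 median. edgeR gave a log2 fold change of 0.72 ± 0.20 with an adjusted p of 0.0106 by edgeR.

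Among the eIF2 kinases, edgeR's test called Eif2ak2 alone at week 2, while DESeq2 also called Eif2ak4 and the fit with the length index also called Eif2ak3. The level of Eif2ak2 went from 2.92 CPM (1.63 to 5.24) to 1.12 CPM (0.238 to 4.55), and 7 of 12 week 2 libraries lay below every week 0 library. Counts of Eif2ak2 were low, down to 20 in a week 0 library and 4 in a week 2 library. The log2 fold change was -1.12 ± 0.33 with an adjusted p of 0.0176 by edgeR, and without the 2 libraries with many unmatched rows the adjusted p was 0.0672. At week 4 it had 2.34 CPM (0.167 to 4.70), a log2 fold change of -0.37 ± 0.32. Eif2ak4 had a median of 1.5 CPM at week 0 and 1.03 CPM at week 2, a log2 fold change of -0.82 ± 0.34 with an edgeR adjusted p of 0.09 and a DESeq2 adjusted p of 0.0366. Eif2ak1, the heme-regulated kinase, had 161 CPM (90.8 to 309) at week 0, 263 CPM (33.2 to 525) at week 2 and 176 CPM (125 to 413) at week 4. Its libraries overlapped throughout, and its log2 fold changes of 0.52 ± 0.26 and 0.29 ± 0.26 had edgeR adjusted p-values of 0.168 and 0.59.

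Eif2ak3 was the one kinase called at week 4. It had 7.28 CPM (1.57 to 9.96) at week 0, 9.16 CPM (1.31 to 15.7) at week 2 and 12.4 CPM (7.22 to 20.4) at week 4. In 7 of 12 week 4 libraries the level lay above every week 0 library. The log2 fold change at week 4 was 0.99 ± 0.28 with an adjusted p of 0.0295 by edgeR, and 6 of 24 fits with 1 library left out lost the call, with values from 0.87 to 1.09. The block by arm, dose and number also lost it (edgeR adjusted p = 0.0596). At week 2 Eif2ak3 had 0.43 ± 0.28 (edgeR adjusted p = 0.306), and with the length index as a covariate 0.85 (edgeR adjusted p = 0.00205).

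**Figure D4:**
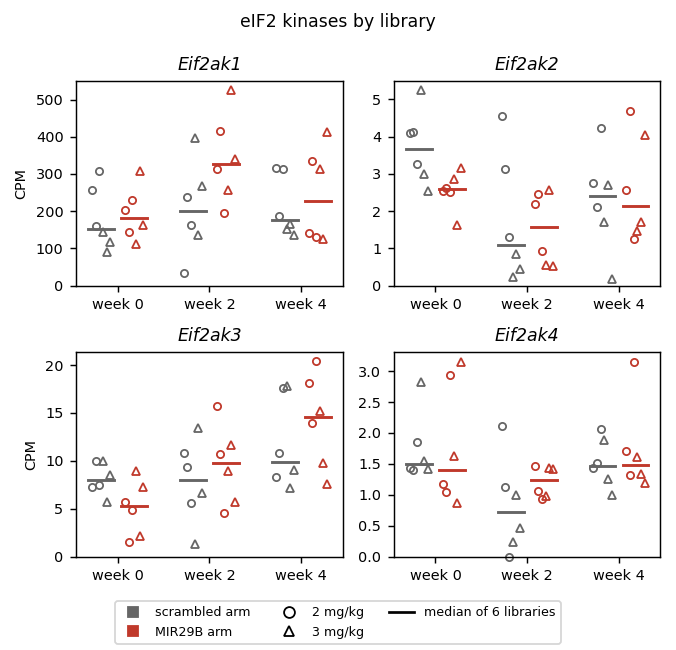
CPM of the 4 eIF2 kinase genes in each of the 36 libraries, by week and arm, on linear axes that start at 0; circles are 2 mg/kg, triangles 3 mg/kg and bars the median of 6 libraries. Eif2ak3 has its highest libraries at week 4, up to 20.4 CPM, and Eif2ak1 is the most abundant, at 33.2 to 525 CPM.

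In the eIF4F group, 1 of 11 genes was called higher and 1 lower at week 2. Eif4a2, an RNA helicase paralog of Eif4a1, had 49.2 to 89.7 CPM at week 0, with a median of 60.0, and 21.9 to 71.8 CPM at week 2, with a median of 40.7. At week 2, 10 of 12 libraries lay below every week 0 library, and the log2 fold change was -0.60 ± 0.16 with an adjusted p of 0.00959 by edgeR. At week 4 the median was 48.5 CPM and the log2 fold change -0.14 ± 0.16. Eif4a3, a helicase of the exon junction complex, went from 4.87 CPM (2.88 to 6.19) to 6.95 CPM (3.15 to 20.5), a log2 fold change of 0.79 ± 0.23 with an adjusted p of 0.0163 by edgeR. Without replicate 3 of the week 2 group on 2 mg/kg scrambled control, or replicate 3 of that on 2 mg/kg MIR29B, the call was lost, at an adjusted p of up to 0.0692 by edgeR. Eif4e, which binds the cap, had medians of 7.37, 6.15 and 7.22 CPM over the 3 weeks and was not called (-0.31 ± 0.18 and 0.11 ± 0.18).

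None of the 4 genes of eIF4E binding proteins was called with both arms together. Eif4ebp1, a repressor of cap-dependent initiation that mTORC1 inactivates, had 34.0 CPM (16.7 to 75.4) at week 0 and 51.4 CPM (23.7 to 226) at week 2, a log2 fold change of 0.75 ± 0.28 (edgeR adjusted p = 0.0611). DESeq2 called it, as did fits without the filter on low counts or with the replicate number as a block. Its paralog Eif4ebp2 had 7.79 CPM (1.57 to 14.2) and then 12 CPM (4.68 to 19.6), at 0.59 ± 0.22 (edgeR adjusted p = 0.0617), and was called by DESeq2, with counts halved and with the length index as a covariate. For Eif4ebp3 the values were -0.47 ± 0.44 at week 2 and -0.33 ± 0.43 at week 4. It was a rare transcript, at 0.0952 to 2.39 CPM, and 65.5% of its sequence is shared with other genes.

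Eif5a, Eif5a2 and Eif6 were all called at week 2. Eif5a encodes the hypusine-bearing factor that helps ribosomes through difficult peptide bonds. It had 36.8 to 97.7 CPM at week 0, with a median of 54.0, and 68.5 to 332 CPM at week 2, with a median of 88.6. All 12 week 2 libraries lay above the week 0 median and 5 above every week 0 library. The log2 fold change was 1.01 ± 0.21 with an adjusted p of 0.00138 by edgeR, and at week 4 it was 0.41 ± 0.21 (adjusted p = 0.282 by edgeR). With the length index as a covariate the week 4 value of Eif5a was 0.46 and called (edgeR adjusted p = 0.00942). Its paralog Eif5a2 fell from 4.07 CPM (1.83 to 13.1) to 2.34 CPM (1.39 to 5.53) at week 2 and 2.80 CPM (1.42 to 5.31) at week 4. The log2 fold changes were -0.71 ± 0.21 and -0.70 ± 0.21, with adjusted p-values of 0.0193 and 0.0386 by edgeR. Without replicate 2 of the week 0 group on 2 mg/kg MIR29B, the library at 13.1 CPM, the week 2 value was -0.54 with an adjusted p of 0.0638. The week 4 call was lost in 17 of 24 fits with 1 library left out. It was also lost without the filter on low counts, with the block by arm, dose and number, and with sex by counts as a term (edgeR adjusted p up to 0.113). Fewer libraries were male by counts at week 4 than at week 0. Eif6, which keeps the large ribosomal subunit from joining too early, went from 6.52 CPM (3.63 to 12) to 11 CPM (4.11 to 19.2), a log2 fold change of 0.71 ± 0.22 with an adjusted p of 0.022 by edgeR, and lost its call in 3 of 24 fits with 1 library left out.

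Between week 4 and week 0, 2 of 52 members were called, Eif2ak3 higher and Eif5a2 lower, against 6.16% of all genes, 4.23% higher and 1.92% lower. Eif1a had 0.64 ± 0.26 and Eif1b, a paralog of Eif1, had -0.67 ± 0.25, followed by Eif1ax at -0.48 ± 0.27, none of them called. Between week 4 and week 2 no member was called by edgeR, while 1.05% of all genes were, 0.678% higher and 0.368% lower. Before adjustment 21 of 52 members and 2189 of 11953 genes were under 0.05. DESeq2 called 7 members, and its calls over all genes are not given here. The members with the smallest p-values were Eif3j1 (0.65 ± 0.19), Eif3f (-0.86 ± 0.26) and Eif3a (0.74 ± 0.22), with edgeR adjusted p-values of 0.0747, 0.0767 and 0.0829. Both changes share the week 2 libraries with the comparison against week 0. The other extremes were Eif2ak2 at 0.75 ± 0.33, Eif2ak4 at 0.68 ± 0.34, Eif1b at -0.65 ± 0.25 and Eif1ax at -0.62 ± 0.27.

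Promoter sequence was examined for the members that rose most steadily. RefSeq windows on GRCm38.p6, from 250 bases before to 50 after an annotated start, were found for 41 of 52 members, and not for Eif1a, Eif2b3, Eif3e, Eif3h, Eif3i, Eif3j2, Eif4e3, Eif4ebp1, Eif4ebp3, Eif4g2 and Eif6. The E-box CACGTG, a palindrome bound by MYC and other basic helix-loop-helix factors, was in a window of 10 of 41 members (24.4%), 11.9% of the 9557 tested genes with a window and 8.09% of all 27025 genes. Its holders were Eif1b, Eif3a, Eif3f, Eif3k, Eif4a1, Eif4e, Eif4g1, Eif4h, Eif5a and Eif5a2. At week 2, 2 of them were called higher, Eif3f and Eif5a, and 2 lower, Eif3a and Eif5a2. Whether the motif goes with the direction of change was not tested. The ETS core CCGGAAG, on either strand, was in windows of 16 of 41 members (39.0%), 20.7% of tested genes and 9.93% of all. Eif3f was the only one of 41 members whose annotated start is a C followed by at least 4 pyrimidines, as in mRNAs with a terminal oligopyrimidine tract, against 3.01% of all genes. The 120 bases before the start of Eif3f and of the Eif5a start with the E-box nearest to it are shown because these genes had the smallest week 2 p-values among the members. The capitals mark CACGTG, which begins 68 bases before the start in Eif3f (chr7:108934295-108934414, plus strand) and 74 bases before it in Eif5a (chr11:69921387-69921506, minus strand).
Eif3f: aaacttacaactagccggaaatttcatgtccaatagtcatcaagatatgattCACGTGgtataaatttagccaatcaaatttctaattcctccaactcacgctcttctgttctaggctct
Eif5a: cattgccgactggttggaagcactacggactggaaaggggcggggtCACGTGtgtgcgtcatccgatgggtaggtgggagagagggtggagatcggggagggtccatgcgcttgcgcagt

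Changes from week 0 were also taken within each arm. In the MIR29B arm, 4 of 52 members were called at week 2, 2 higher and 2 lower, against 5.44% of all genes, 3.45% higher and 1.99% lower. Eif5b had 12.5 to 42.4 CPM, with a median of 19.1, in the 6 libraries of week 0 and 6.51 to 10.9 CPM, with a median of 9.22, in those of week 2, and the groups did not overlap. Between them the log2 fold change was -1.29 ± 0.28 with an adjusted p of 0.00523 by edgeR, called in each of 12 fits with 1 library left out. In the scrambled arm Eif5b had 12.8 to 20.9 CPM at week 0 and 8.5 to 26.5 CPM at week 2, and the log2 fold change was -0.31 ± 0.28. In edgeR's test of the difference between arms, -0.99 ± 0.39, the p-value went from 0.0164 to an adjusted p of 0.859, so the arms were not shown to differ.

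Eif4ebp2 had 1.57 to 8.57 CPM, with a median of 7.04, at week 0 of the MIR29B arm and 6.39 to 19.6 CPM, with a median of 13.4, at week 2. Its log2 fold change was 1.23 ± 0.32 with an adjusted p of 0.0178 by edgeR, against -0.04 ± 0.31 in the scrambled arm. Of the week 0 group on 2 mg/kg MIR29B, leaving out replicate 2 (1.57 CPM) gave an edgeR adjusted p of 0.0512 and leaving out replicate 3 (2.51 CPM) one of 0.0621. The difference between arms was 1.27 ± 0.44 (edgeR adjusted p = 0.838). Eif5a2 was called lower in the MIR29B arm, at -1.15 ± 0.30 (edgeR adjusted p = 0.0179), and Eif3f higher, at 1.29 ± 0.36 (edgeR adjusted p = 0.031). The 6 MIR29B libraries of Eif3f had 29.7 to 78.6 CPM at week 0 and 79.0 to 171 CPM at week 2, without overlap. Its call was lost in 7 of 12 fits with 1 library left out and with the block by arm, dose and number, and that of Eif5a2 in 4 of 12. Without the 2 libraries with many unmatched rows, 2 members were called in this arm, and the edgeR adjusted p of Eif3f was 0.261 and that of Eif5a2 0.0814.

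In the scrambled arm, 3 of 52 members were called at week 2, all higher, against 3.21% of all genes, 2.11% higher and 1.10% lower. They were Eif3f at 1.68 ± 0.37, Eif5a at 1.28 ± 0.30 and Eif6 at 1.06 ± 0.31, with edgeR adjusted p-values of 0.0128, 0.0208 and 0.0478. The 6 scrambled libraries of Eif5a had 37.8 to 63.2 CPM at week 0 and 68.5 to 332 CPM at week 2, without overlap. Fits with 1 library left out lost the call in 4 of 12 for Eif3f, 5 for Eif5a and 8 for Eif6. With the block by arm, dose and number all 3 calls were lost, at edgeR adjusted p-values of 0.0609, 0.0797 and 0.077, and with the length index Eif5a (0.58) and Eif6 (0.65) were not called. The lowest changes were those of Eif2ak2 (-1.52 ± 0.47), Eif2ak4 (-1.08 ± 0.48) and Eif3a (-0.82 ± 0.32), not called by edgeR. DESeq2 called Eif2ak2 lower in this arm (adjusted p = 0.019), as did edgeR without the filter on low counts or with counts halved. For Eif3f, Eif5a and Eif6 the differences between arms in the week 2 change were -0.39 ± 0.51, -0.53 ± 0.42 and -0.69 ± 0.43, with edgeR adjusted p-values of 0.967, 0.917 and 0.889.

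At week 4, 1 of 52 members was called in the MIR29B arm, where 3.09% of all genes were, 2.64% higher and 0.443% lower. Eif2ak3 had 1.57 to 8.97 CPM, with a median of 5.31, at week 0 and 7.56 to 20.4 CPM, with a median of 14.6, at week 4. This was a log2 fold change of 1.45 ± 0.40 with an adjusted p of 0.0398 by edgeR, and 7 of 12 fits with 1 library left out lost the call, as did the block by arm, dose and number (edgeR adjusted p = 0.0718) and sex by counts as a term (0.0521). In the scrambled arm its level was 5.76 to 9.96 CPM and then 7.22 to 17.8 CPM, at 0.53 ± 0.40, and the difference between arms was 0.92 ± 0.56 (edgeR adjusted p = 0.793). No member was called at week 4 in the scrambled arm, where 0.460% of all genes were, 0.360% higher and 0.1% lower. There 5 members had an unadjusted p under 0.05, led by Eif1 at 1.15 ± 0.41, against 1168 of 11953 genes. DESeq2 called 0 members.

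The direct comparison of the arms asks whether MIR29B moved the initiation factors. miR-29b-3p is printed with its seed, bases 2 to 8, in capitals, as given by RefSeq, and 3 sites in 3′ UTRs follow with the paired letters in capitals: the one 8-mer among the members, in Eif4e2, the site of Eif5b, the site holder with the lowest value between the arms, and the site of Eif4e, the cap-binding factor.
miR-29b-3p: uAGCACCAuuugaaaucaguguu
Eif4e2: cacaaataaaTGGTGCTAaaccag
Eif5b: ctcttccctcTGGTGCTgaggtgccaa
Eif4e: atgtttttatTGGTGCTctaaatcacc
A site of any kind (TGGTGCTA, TGGTGCT or GGTGCTA) was in the annotated 3′ UTR of 10 of 52 members, and of 16.0% of 15409 genes with a UTR. The 8-mer TGGTGCTA was in 1 of 52 members and in 2.79% of genes. The other holders were Eif3j1, Eif3j2, Eif2s1, Eif2s2, Eif4a3, Eif4b and Eif4h. A match is a description of the letters and does not show that the site is used.

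With both doses averaged, 0 of 52 members and 0% of all genes were called by edgeR at week 0, week 2 or week 4. Before adjustment, 2, 4 and 0 of 52 members were under 0.05, against 852, 1175 and 315 of 11953 genes. DESeq2 called 0 members at each week. For the 10 members with a site the median log2 fold change of MIR29B over scrambled was -0.07 at week 2 and -0.04 at week 4, and for the 42 without one it was -0.12 and -0.02. Eif4e2, with the 8-mer, had -0.06 ± 0.28, -0.06 ± 0.28 and 0.03 ± 0.28 at weeks 0, 2 and 4. Eif5b was lowest of the site holders at week 2, at -0.68 ± 0.28 (unadjusted p = 0.0193, edgeR adjusted p = 0.409), and at week 4, at -0.52 ± 0.28, while at week 0 it was 0.30 ± 0.28. By library, Eif5b at week 2 had 6.51 to 10.9 CPM in the MIR29B arm and 8.5 to 26.5 CPM in the scrambled arm, and the groups overlapped.

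**Figure D5:**
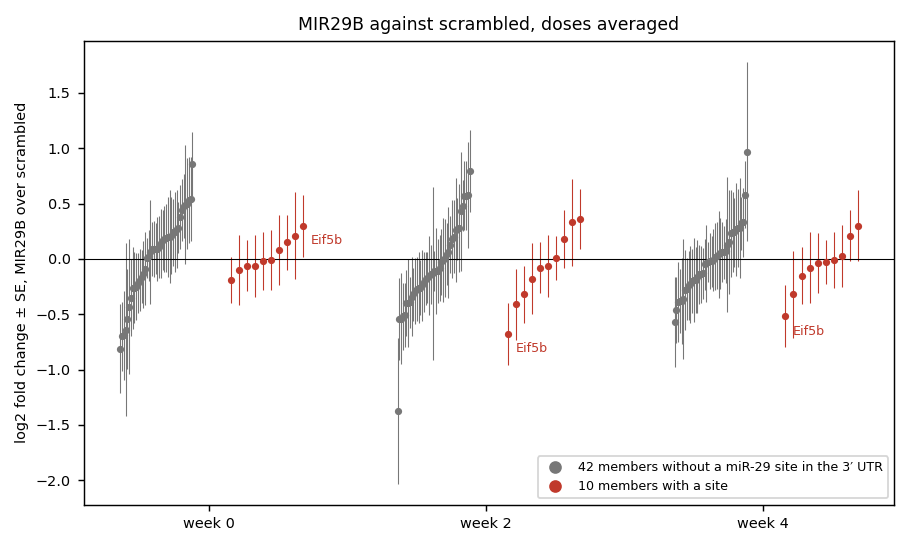
Log2 fold change of MIR29B over scrambled with its standard error for the 52 members at each week, doses averaged; members with a miR-29 site in the 3′ UTR are red. Both sets straddle 0 at each week, and Eif5b goes from 0.30 at week 0 to -0.68 at week 2.

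The kinases gave no call between the arms. Eif2ak1 at week 2 had 33.2 to 396 CPM, with a median of 201, in the scrambled arm and 195 to 525 CPM, with a median of 327, in the MIR29B arm, a log2 fold change of 0.79 ± 0.37 (unadjusted p = 0.0379, edgeR adjusted p = 0.473). At week 0 it was 0.20 ± 0.36 and at week 4 0.24 ± 0.36. Eif2ak3 had -0.69 ± 0.40, 0.28 ± 0.40 and 0.23 ± 0.39 at the 3 weeks, Eif2ak2 -0.54 ± 0.45, 0.26 ± 0.47 and 0.28 ± 0.45, and Eif2ak4 0.06 ± 0.47, 0.58 ± 0.48 and 0.15 ± 0.47. At week 0 the smallest p belonged to Eif5a2, at 0.86 ± 0.29, and Eif4ebp2 stood at -0.70 ± 0.31 and Eif4e3 at -0.81 ± 0.40. At week 2 the other extremes were Eif4ebp3 at -1.37 ± 0.66, Eif1a at -0.54 ± 0.37 and Eif4ebp2 at 0.57 ± 0.31. At week 4 they were Eif1 at -0.57 ± 0.41, Eif6 at -0.46 ± 0.30, Eif2b3 at 0.97 ± 0.81 and Eif5a2 at 0.58 ± 0.30. At week 0 the summed neutrophil markers had a median of 625 CPM (174 to 1110) in the scrambled and 313 CPM (168 to 545) in the MIR29B libraries. At week 2 the medians were 2030 CPM (878 to 2790) and 908 CPM (748 to 1620), and the ranges overlapped at both weeks. The median log2 difference of these markers between arms was -1.28 at week 0 and -0.65 at week 2. None of the 10 was called by edgeR at either week, and the part of these markers in the values above was not tested.

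Within each dose the arms gave 0 calls among members and 0% among all genes at each week by edgeR. At 2 mg/kg 2, 5 and 1 of 52 members had an unadjusted p under 0.05 at weeks 0, 2 and 4, and at 3 mg/kg 1, 3 and 1 did. Of 11953 genes, 553, 983 and 269 did at 2 mg/kg and 407, 847 and 382 at 3 mg/kg. At week 2 on 2 mg/kg the smallest p was that of Eif3h (0.94 ± 0.33), with Eif2ak1 at 1.09 ± 0.52 and Eif5b at -0.94 ± 0.39. Replicates 2 and 3 of the MIR29B group there are the libraries with many unmatched rows, so these values rest largely on them. At week 2 on 3 mg/kg it was that of Eif3l (-1.16 ± 0.42), with Eif5 at 1.09 ± 0.44 and Eif2ak2 at 1.21 ± 0.70. Without replicate 1 of the scrambled group there, the Eif3l value was 0.03. At week 4 Eif5a2 on 3 mg/kg had the smallest unadjusted p of all these, 0.000913, at 1.58 ± 0.43. Its 3 MIR29B libraries had 2.96, 5.31 and 4.81 CPM and its 3 scrambled ones 1.42, 1.44 and 1.5 CPM, without overlap, but the adjusted p by edgeR was 1. The difference between the doses in this effect was 2.00 ± 0.60, with an unadjusted p of 0.00207. No member passed the test of the difference between arms or between doses, where 0% of all genes did. Between doses, 2 members at week 2 and 3 at week 4 had an unadjusted p under 0.05, against 688 and 410 of 11953 genes. DESeq2 called 0 members in these comparisons.

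Other genes of the pathway were counted from lists chosen for their function, with earlier results of these data known. The counts are therefore a description and not independent support. They come from the fit with all 36 libraries only. Of 24 tested genes of the response to eIF2 phosphorylation, 10 were called higher and 0 lower at week 2 with both arms together. Of all genes tested, 8.72% were called higher and 7.24% lower. In the list 23 of 24 lay above 0, with a median log2 fold change of 0.73, against -0.03 for all genes. Ppp1r15a, whose product brings a phosphatase to eIF2, rose by 1.14 ± 0.24 and Ppp1r15b, its constitutive counterpart, by 0.62 ± 0.21. Cebpb rose by 1.67 ± 0.23, Sesn2 by 1.5 ± 0.45, Shmt2 by 1.34 ± 0.30, Atf5 by 1.26 ± 0.33 and the amino acid transporter genes Slc3a2 by 1.09 ± 0.22, Slc7a11 by 1.08 ± 0.38 and Slc7a5 by 0.97 ± 0.19. The tenth was the seryl-tRNA synthetase gene Sars, at 0.85 ± 0.22. At week 4, 6 of 24 were called higher and 0 lower, against 4.23% and 1.92% of all genes. Slc7a11 stood at 2.03 ± 0.39 and Ddit4 at 1.01 ± 0.18. Cebpb is also a transcription factor of myeloid cells, and 9 of 10 neutrophil markers rose in the same comparison; that part was not tested. Within the arms, 7 of 24 were called at week 2 under MIR29B and 1, Cebpb, under the scrambled control. The shares of all genes were 5.44% and 3.21%. The list's medians were 0.63 and 0.62, and 0 of 24 were called in the difference between arms.

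Of 23 genes of mTORC1 and cap binding control, 1 was called higher at week 2, Akt1s1 (0.78 ± 0.23), which encodes an mTORC1 inhibitor. Another 2 were lower, Paip2 (-0.76 ± 0.19), a poly(A)-binding protein antagonist, and Pdcd4 (-0.54 ± 0.18), an inhibitor of the eIF4A helicase, and the list's median was 0. Its share of calls was no higher than the 16.0% of all genes tested, of which 8.72% were higher and 7.24% lower. Of 12 elongation and termination genes, 2 were called higher, the elongation factor gene Eef2 (0.85 ± 0.18) and Dohh (1.08 ± 0.30), an enzyme that makes the hypusine of eIF5A. There 2 were lower, the ribosome recycling factor gene Abce1 (-1 ± 0.31) and Gspt1 (-0.69 ± 0.22), a release factor. At week 4 Eef2 (0.89 ± 0.18) and the release factor gene Etf1 (1.09 ± 0.19) were called higher and 0 genes of that list lower. Of all genes, 4.23% were called higher and 1.92% lower at week 4.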

How the data were processed

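The deposited table holds raw read counts per RefSeq transcript, not normalised, in 36 libraries; per the submitters' processing notes HISAT2 2.0.5, featureCounts 1.5.0-p3 and GRCm38 were used, in roles not given in the sources used here. Every count was even. Transcripts were matched to symbols with RefSeq (25650) or GENCODE (132) tables. The 74 others, 1.04 to 10.07% of a library's counts, have no symbol; they were kept under their own identifiers in library sizes and tests and count among the 16812 genes. Counts of 1 transcript a gene were filtered (edgeR 4.0.16 filterByExpr by group, minimum count 10, minimum total 15), scaled by TMM and fitted with edgeR's quasi-likelihood model in R 4.3.3, with 12 groups over all 36 libraries. Benjamini-Hochberg adjustment ran over 11953 genes, two-sided, at 0.05. The standard error is the absolute log2 fold change over the root of F. The common dispersion of 0.25 is a coefficient of variation of 0.5 between replicates. Levels per kb used GENCODE transcript lengths. The code was tested on simulated counts. Members, gene lists and the rule for naming genes (called members, extremes, smallest p, the kinases, eIF2, eIF4E and eIF5A genes) were chosen with earlier results of these data known. Alternatives were DESeq2 1.42.0, its size factors, no filter, halved counts, replicate blocks, a length term, a sex term and left-out libraries. The labels do not give strand handling or the assignment of reads shared by paralogs.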

Additional observations from a re-analysis of the deposited data

How the results depend on the processing

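The labels do not say that replicate numbers pair the samples, and not every same-numbered pair correlated: deviations of same-numbered libraries of different groups had correlations from -0.54 to 0.47, with a median of 0.05. As a hint from the data, 21 of 36 libraries correlated best with their own number of the 3, and by counts the number followed sex, with all 12 replicate 1 libraries female and all 12 replicate 3 libraries male. With the replicate number as a replicate block, 1 member was called between week 4 and week 2 in place of 0, and no other count moved by over 1.5 times. With a block by arm, dose and number, 0 members were called at week 4 with both arms, at week 4 under MIR29B and at week 2 under the scrambled control. By counts, 4 of the 12 such blocks held libraries of both sexes, so these do not each follow 1 animal. Fits with this block are therefore not a test of paired samples. Counts called at week 2 with both arms were 6 without the libraries with many unmatched rows, in place of 14. Without the filter on low counts they were 1 at week 4 with both arms, 2 between weeks 4 and 2, and 6 at week 2 under the scrambled control. With the length index as a covariate they were 6 at week 4 with both arms, 1 between weeks 4 and 2, 9 at week 2 under MIR29B, 1 under the scrambled control and 3 at week 4 under MIR29B. DESeq2 called 7 between weeks 4 and 2, 8 at week 2 under the scrambled control and 2 at week 4 under MIR29B. Without the unmatched-row libraries 2 were called at week 2 under MIR29B, and with sex by counts as a term 0 at week 4 under MIR29B. With 1 library left out, counts ran from 11 to 18 at week 2 and 0 to 3 at week 4 with both arms, 0 to 4 between weeks 4 and 2, 2 to 4 at week 2 and 0 to 3 at week 4 under MIR29B, and 0 to 8 at week 2 under the scrambled control. The calls over all genes under each of these settings are not given here. The counts therefore describe the members only and are not set against all genes. The cause of these shifts was not tested. All other counts, each 0 in comparisons of arms and doses, stayed at 0 under every setting run.

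Signs turned only for members that were not called. With 1 library left out, week 2 values ran from -0.37 to 0 for Eif2s2, and week 4 values from -0.25 to 0.01 for Eif2ak4 and -0.18 to 0 for Eif2s1. Between arms they ran from -0.05 to 0.34 for Eif2ak1 and -0.23 to 0.24 for Eif2ak4 at week 0 (-0.2, -0.03 and -0.01 in single fits), and -0.29 to 0.62 for Eif2ak2 at week 2. At week 4 they ran from -0.04 to 0.43 for Eif2ak1, 0 to 0.62 for Eif2ak2 and -0.07 to 0.3 for Eif2ak4. On 3 mg/kg they ran from -0.75 to 0.13 for Eif2b2 at week 0, and at week 2 from -1.53 to 0.03 for Eif3l and -1.25 to 0.52 for Eif3d. With the length index Eif2ak3 was -0.07 and Eif2ak4 -0.03 between arms at week 4. Low counts limit Eif2ak4, Eif2b1, Eif2b3 and Eif4ebp3 most.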
